A study of Mus musculus with 16 samples.

Results

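The mRNAs of 10 actin cytoskeleton genes were followed in mouse neural stem cell (NSC) cultures: 3 actins (Actb, Actg1, Acta2), the filament bundler Fscn1, the monomer and filament regulators Pfn1, Cfl1, Tmsb4x and Tmsb10, and the tropomyosins Tpm1 and Tpm4. They are 10 of 24946 genes in the tables, matched by symbol. The list was chosen by the polyribosomal level relative to total RNA of Actb and Fscn1, which stood among the mRNAs most enriched on polyribosomes, so that ratio is given as a description without a test. Tsc2 encodes tuberin, a brake on the growth kinase complex mTORC1. Tsc2 mutant/mutant and Tsc2 wild type/wild type pups, bred with a Nestin-driven, tamoxifen-inducible Cre (Nes-cre/ERT2) and a tdTomato reporter, received tamoxifen, and a week later the V-SVZ, the neurogenic wall of the lateral ventricle, was dissected and grown as NSC cultures; the sources used here leave unclear whether wild-type pups had Cre. Each of 4 mutant and 4 wild-type cultures gave a polyribosomal RNA library, recovered after cycloheximide from the heaviest layer of a sucrose gradient, and a total RNA library, 16 libraries in all. Cre under the Nestin promoter acts only in cells that express it or descend from them, so a mutant culture may hold cells that kept Tsc2. The paper reports a homogeneous, reporter-positive NSC population after subculturing, and loss of Tsc2 in NSC subcultures. Its western blot of tuberin used the NSCs of a separate RNA sequencing experiment.

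Actin exists as free monomers and as filaments, and cells move and change shape by turning one into the other. Profilin (Pfn1) feeds monomers to growing ends, cofilin (Cfl1) severs old filaments, and the small thymosins (Tmsb4x, Tmsb10) hold monomers in reserve. Fascin (Fscn1) packs filaments into the tight bundles of filopodia, and tropomyosins lie along filaments and set which other proteins can bind. Free monomers also hold back the cofactors of serum response factor (SRF), which drives many actin genes. The mRNA of β-actin (Actb) carries a short zipcode behind its stop codon, bound by proteins of the Igf2bp family, that sends it to the cell edge and holds back its translation on the way.

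All coordinates are of mm10 (GRCm38). Actb lies on chromosome 5 (142903115 to 142906754, minus strand) and encodes 375 codons, as does Actg1 on chromosome 11 (120345690 to 120348542, minus strand), which makes the other cytoplasmic actin. Fscn1 (493 codons) lies 53588 bases from Actb, at 142960343 to 142973185 of chromosome 5 on the plus strand. Tmsb4x, on chromosome X (167207093 to 167209315, minus strand), and Tmsb10, on chromosome 6 (72957347 to 72958748, minus strand), have only 44 codons each. The 2 cytoplasmic actin mRNAs are shown first because near-identical copies can share reads. These are the first 60 bases of their coding sequences in GENCODE M21, where capitals mark the 9 bases that differ between them.
Actb: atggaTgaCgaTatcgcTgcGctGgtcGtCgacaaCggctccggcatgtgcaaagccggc
Actg1: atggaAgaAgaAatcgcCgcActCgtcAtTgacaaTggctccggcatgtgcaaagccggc

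Over the whole coding sequence of 1128 bases with the stop codon, Actb and Actg1 were 88.7% identical and differed at 128 bases. The longest run that the 2 transcripts shared was 62 bases, shorter than a read of 150 bases, so full-length reads from one cannot match the other without mismatches. Actins and other genes of the list have processed pseudogenes in the mouse, and how reads were split among such copies is not stated. Acta2, the smooth muscle actin, was 83.0% identical to Actb and 81.6% to Actg1, and since its level was far below that of the cytoplasmic actins its value is uncertain where reads were placed wrongly. The coding sequences of the thymosins are shown whole because both genes moved the same way in translational efficiency; capitals mark the 40 of 135 bases that differ.
Tmsb4x: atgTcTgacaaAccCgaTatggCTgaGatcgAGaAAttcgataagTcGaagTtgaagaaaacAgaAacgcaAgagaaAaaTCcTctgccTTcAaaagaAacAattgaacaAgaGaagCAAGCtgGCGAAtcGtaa
Tmsb10: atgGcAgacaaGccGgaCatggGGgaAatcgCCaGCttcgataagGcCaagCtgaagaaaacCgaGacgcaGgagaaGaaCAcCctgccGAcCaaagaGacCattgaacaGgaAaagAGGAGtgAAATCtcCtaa

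The thymosins were 70.4% identical and shared no run longer than 10 bases, so their reads can be told apart. The zipcode was looked for as CGGACT and ACACCC on the transcript strand, 10 to 25 bases apart, in the 3′ UTRs of 19740 genes. It was found in 6 genes, 0.0304% of those scanned, and in 1 of the 10 actin cytoskeleton genes, Actb, where it began at base 2 after the stop codon. Capitals mark its 2 parts, which stand 18 bases apart.
Actb zipcode: CGGACTgttactgagctgcgttttACACCC

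A CArG box, the site of SRF, was looked for as CC, then 6 bases that are each A or T, then GG, from 250 bases before to 50 after the start site in RefSeq (GRCm38.p6). It was present in 1.81% of 27025 genes with such a window. Actb had no window and was not scanned. Of the 9 genes of the list with a window, only Actg1 held one, 90 bases before its start on the minus strand of chromosome 11. The stretch around it, 120348566 to 120348595, is shown with the box in capitals. A match is a description of the letters and no evidence that SRF binds there.
Actg1 promoter: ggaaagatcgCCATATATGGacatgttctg

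The deposited values were reads per gene divided by normalization factors, which are called normalized values here. They summed to 87.4 to 100.5 M per polyribosomal library and 65.6 to 73.7 M per total RNA library, and their smallest steps put the depth at about 51.3 to 267 M reads per polyribosomal and 24.7 to 139 M reads per total RNA library. The NSC markers fixed for the check, among them Nes, Sox2 and Olig2, had none of 11 at 0 in any library and summed to 972134 to 1088790 in mutant and 929877 to 1073200 in wild-type total RNA. The largest part of that sum was Vim, at 362266 to 410875 in mutant and 310393 to 406902 in wild-type cultures. Of the 11 markers, 3 were higher and 1 lower in mutant total RNA (limma adjusted p under 0.05), beside 19.7% and 20.7% of all genes. Microglial markers (14 genes) summed to 27444 and 14675 in mutant cultures 2 and 4, against 4729 to 6602 in the other 2 mutant and 3523 to 5871 in the wild-type cultures. Y-linked genes (4) summed to 4775 in mutant culture 1 and 6.57 to 48.6 in the other 3 mutant cultures, against 4203 to 5802 in wild-type cultures 1 to 3 and 258 in wild-type culture 4, so that only mutant culture 1 and wild-type culture 4 break a split by genotype, and the labels do not give sex. Tsc2 itself had 7076, 6811, 6190 and 5592 in mutant and 7836, 6817, 6232 and 6701 in wild-type total RNA (log2 change -0.10 ± 0.10 SE, limma adjusted p = 0.422) and was lower on mutant polyribosomes (-0.49 ± 0.15, adjusted p = 0.0389). Such a value over the whole gene does not show whether the deleted part was lost. In whole cultures, fewer cells of a type and less RNA per cell cannot be told apart.

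Several of these mRNAs were among the most abundant of the cultures. By mean value Actg1 ranked 5th in mutant and 2nd in wild-type polyribosomal RNA, and 8th in mutant and 4th in wild-type total RNA. Actb ranked 8th in mutant and 11th in wild-type polyribosomal RNA, and 27th and 42nd in total RNA. The 10 genes made up 2.10% ± 0.17 (SD, n = 4) of the polyribosomal column total in mutant and 2.09% ± 0.05 in wild-type cultures, and 1.19% ± 0.07 of the total RNA column in mutant and 1.28% ± 0.08 in wild-type cultures. Per kilobase of transcript (the median over coding transcripts), Actg1 had the highest level in all 4 groups, with 628527 ± 58771 on mutant and 795527 ± 31407 on wild-type polyribosomes. Actb, with 544691 ± 103562 on mutant and 493066 ± 24106 on wild-type polyribosomes, came next there and overlapped Actg1 in mutant but not in wild-type cultures, whereas Tmsb4x came next in total RNA, with 154290 ± 8968 in mutant and 174315 ± 39048 in wild-type cultures. Actb in mutant total RNA (143690 ± 17584 per kilobase) lay within its own SD of Tmsb4x. On polyribosomes Cfl1 and Pfn1 followed in both genotypes, then Tmsb4x and Fscn1 in mutant and Fscn1 and Tmsb4x in wild-type cultures, then Tmsb10, Tpm1 and Tpm4. With the longest transcript as the length, Tmsb4x passed Actg1 in mutant total RNA (137147 against 133896 per kilobase). Pfn1 then passed Cfl1 on polyribosomes, at 145645 against 139848 in mutant and 182946 against 133850 in wild-type cultures. Tpm4 passed Tpm1 there in both genotypes, and Actb fell from rank 4 to rank 6 of the 10 in wild-type total RNA. The median lengths of Actb (930 bases) and Actg1 (1021 bases) are shorter than their coding sequences of 1125 bases without the stop codon. Acta2 was last in every group, at 162 ± 18 per kilobase in mutant and 241 ± 49 in wild-type total RNA.

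**Figure D1:**
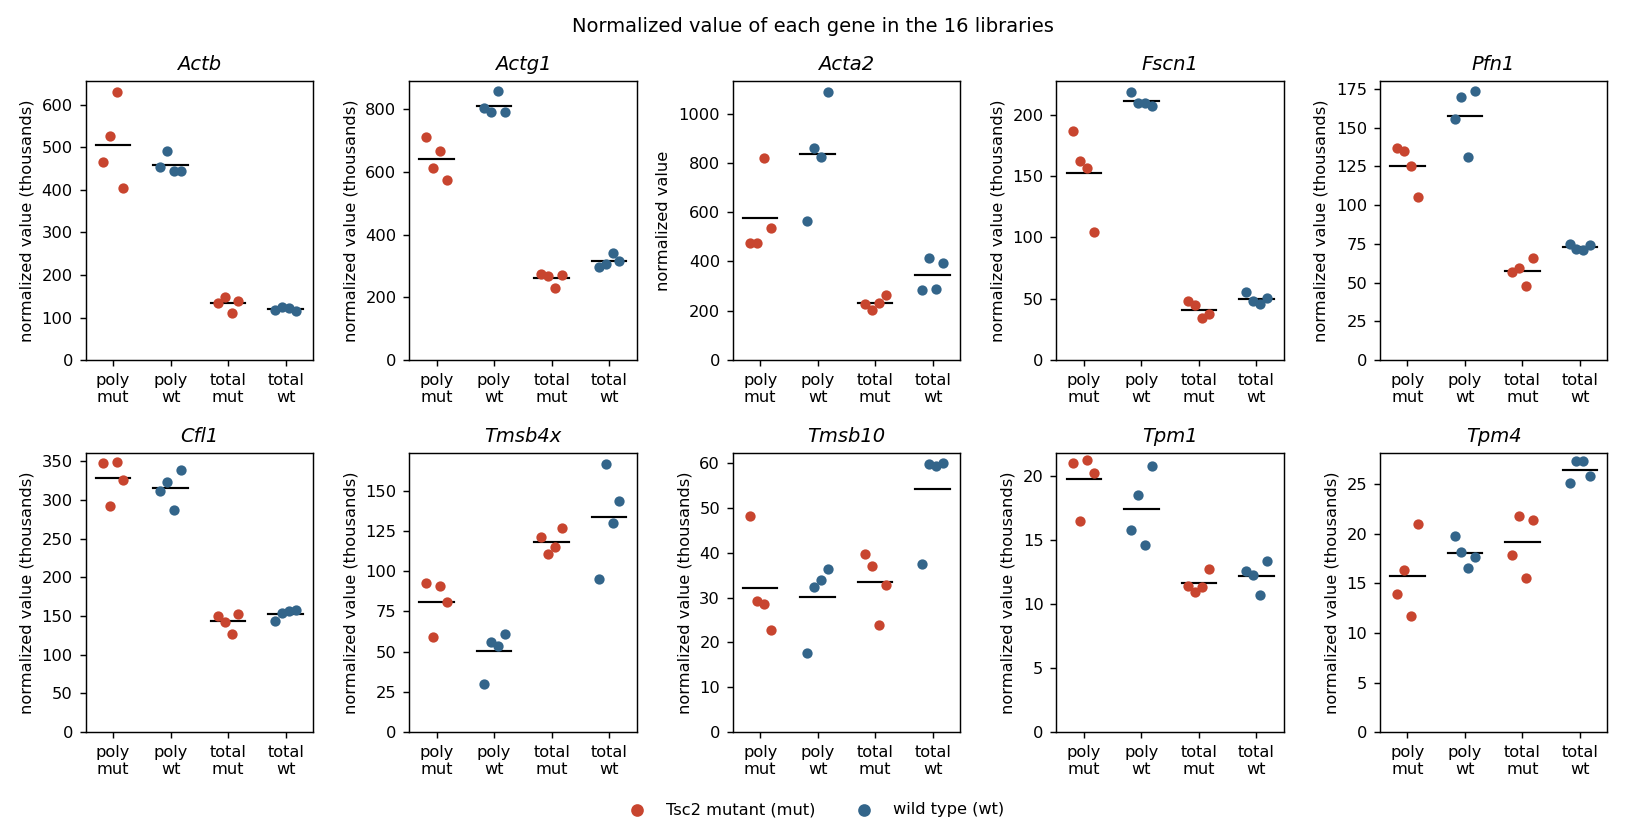
Normalized value (vertical axis, scaled as labelled on each panel) of each gene in the polyribosomal (poly) and total RNA libraries of 4 Tsc2 mutant (mut, red) and 4 wild-type (wt, blue) cultures; points are libraries and lines group means. Actb and Fscn1 stand far higher in the polyribosomal table, and Tmsb4x lower; the tables were normalized separately.

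Over the list, polyribosomal against total RNA ran from far above the median of all genes to below it. Each culture's log2 ratio of the values was set against the median of the 14333 genes tested in both tables, since the tables were normalized separately. Actb had log2 ratios of 1.98, 2.00, 2.73 and 1.79 above that median in the mutant cultures, against 2.18, 2.13, 2.01 and 2.15 in the wild-type cultures. Fscn1 had 2.16, 2.03, 2.42 and 1.72 in the mutant cultures, against 2.2, 2.28, 2.36 and 2.23 in the wild-type cultures. By the mean of the cultures Fscn1 ranked 34th in mutant and 8th in wild-type cultures among 14333 genes, and Actb 24th in mutant and 15th in wild-type cultures. Both had been chosen for this ratio. Mutant culture 3 was highest for both genes, and the wild-type cultures lay closer together than the mutant ones.

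The other actins were also on the high side, at 1.51 ± 0.20 (SD, n = 4) in mutant and 1.55 ± 0.08 in wild-type cultures for Actg1 and at 1.49 ± 0.38 and 1.44 ± 0.26 for Acta2. Pfn1 stood at 1.34 ± 0.30 in mutant and 1.29 ± 0.18 in wild-type cultures, and Cfl1 at 1.42 ± 0.19 and 1.23 ± 0.13. Actg1 lay between percentiles 92.6 and 97.0 of all genes in the 8 cultures, and Pfn1 and Cfl1 between percentiles 82.5 and 93.8. Tpm1 was above the median by 0.97 ± 0.16 in mutant and 0.69 ± 0.13 in wild-type cultures. Its wild-type mean lay at percentile 73.2, between the quartiles of all genes, and its mutant mean at percentile 81.7.

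The remaining 3 genes did not stand above the median in all 8 cultures. Tmsb4x had -0.19, -0.72, -0.12 and -0.40 in the mutant cultures, against -1.42, -1.41, -1.12 and -1.04 in the wild-type cultures. Tmsb10 had 0.48, -0.16, 0.48 and -0.27 in the mutant cultures, against -0.86, -0.72, -0.64 and -0.53 in the wild-type cultures. The mutant cultures lay above all wild-type cultures for both thymosins. Tpm4 had -0.09 ± 0.21 in mutant and -0.36 ± 0.18 in wild-type cultures, with overlap. Over the list, 7 of 10 genes lay above the median of all genes in all 8 cultures and 1 (Tmsb4x) below it in all 8, where 34.4% and 31.9% of all genes did so. With the column totals set equal in place of the medians, every ratio was lower, Actb stood at 1.51 in mutant and 1.50 in wild-type cultures and Tpm1 at 0.36 and 0.07, and 6 genes lay above 0 in all 8 cultures.

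**Figure D2:**
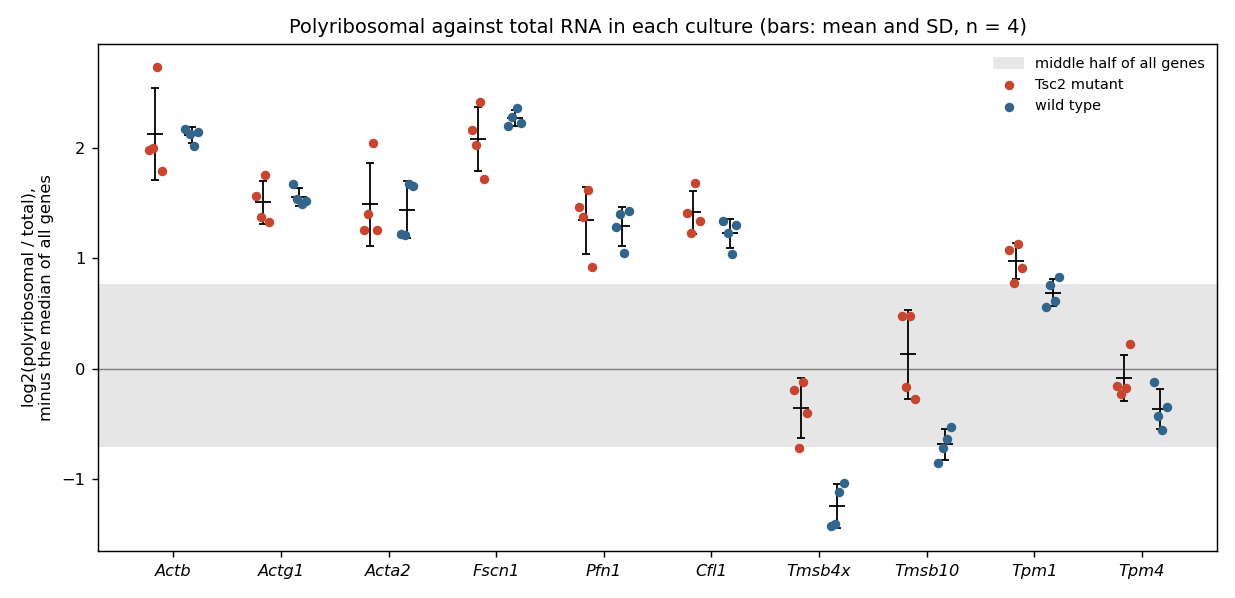
Log2 ratio of polyribosomal to total RNA minus the median of all genes (vertical axis), by gene, for 4 mutant (red, left) and 4 wild-type (blue, right) cultures; points are cultures, bars the mean and SD, and the grey band the range between the quartiles of all genes. Actb and Fscn1 lie near or above 2 in most cultures, and the thymosins are the genes whose mutant cultures all lie above the wild-type ones.

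In total RNA, 5 of the 10 genes were lower in mutant cultures and none was higher, at a limma adjusted p under 0.05 over 14967 genes, where 40.3% of all genes passed, 20.7% lower and 19.7% higher. The median log2 change of the list was -0.28, against 0.01 over all genes. Tpm4, a tropomyosin of non-muscle cells, had 17828, 21777, 15505 and 21408 in mutant cultures, against 25145, 27357, 27314 and 25789 in wild-type cultures. The groups did not overlap (log2 change -0.48 ± 0.11 SE, adjusted p = 0.0094). How many of all genes did not overlap in this way was not counted. Tmsb10 had 39715, 37045, 23941 and 32849 in mutant cultures, against 37489, 59738, 59307 and 60117 in wild-type cultures. Wild-type culture 1 lay among the mutant cultures and the other 3 far above them (log2 change -0.70 ± 0.19, adjusted p = 0.0169).

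Actg1 had 275580, 268279, 230425 and 271180 in mutant cultures, against 296886, 305826, 342169 and 316780 in wild-type cultures. All mutant cultures lay below all wild-type ones, by a small step (log2 change -0.27 ± 0.09, adjusted p = 0.0294). Pfn1, the monomer carrier, had 56908, 59098, 47537 and 65989 in mutant cultures, against 74839, 71585, 71224 and 74012 in wild-type cultures. It did not overlap between genotypes either (log2 change -0.36 ± 0.10, adjusted p = 0.0192). Acta2 had 228, 204, 231 and 266 in mutant cultures, against 283, 416, 289 and 395 in wild-type cultures (log2 change -0.56 ± 0.17, adjusted p = 0.0252). Every mutant culture was below every wild-type one. Smooth muscle and pericyte markers (12 genes), the usual company of Acta2, summed to 8935 to 13531 in mutant and 4896 to 8031 in wild-type total RNA. Of the 10 tested, 4 were higher and none lower, beside 19.7% and 20.7% of all genes. Most of that sum came from 2 genes that progenitor cells also express, Cspg4 (3670 to 7652 in mutant and 1825 to 3176 in wild-type cultures) and Notch3 (4094 to 5170 in mutant and 2554 to 4103 in wild-type cultures). Of the defining genes of smooth muscle, which overlapped between genotypes, Tagln stood at 280 to 481 in mutant and 240 to 416 in wild-type cultures, Cnn1 at 15.1 to 22.9 and 5.97 to 24.7, and Myh11 at 8.76 to 18.1 and 4.24 to 8.91. The pericyte marker Pdgfrb did not overlap, at 263 to 312 in mutant and 86.9 to 259 in wild-type cultures. Rgs5 stood at 69.5 to 344 and 36.2 to 90.4, with overlap. Over the tested genes of this marker list the median log2 change was 0.80, against 0.01 over all genes. The part of such cells in the Acta2 result was not tested.

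The other 5 genes did not pass the test in total RNA. Actb had 135219, 149409, 110806 and 139092 in mutant cultures, against 117807, 125883, 123297 and 114746 in wild-type cultures. Mutant culture 3 was the lowest of all 8 and the other 3 mutant cultures the highest (log2 change 0.14 ± 0.10, adjusted p = 0.264). Without mutant culture 3, Actb was 0.23 higher (adjusted p = 0.0353). Fscn1 stood at -0.29 ± 0.12 (adjusted p = 0.0714), Tmsb4x at -0.15 ± 0.15 (0.445), Cfl1 at -0.10 ± 0.08 (0.346) and Tpm1 at -0.07 ± 0.09 (0.549). Fscn1 passed without mutant culture 1 (-0.36, adjusted p = 0.0473), and Tmsb4x without wild-type culture 1 (-0.30, adjusted p = 0.0441), though it stood at -0.03 without wild-type culture 2. Leaving out 1 culture at a time left between 2 and 6 of the genes past the threshold, with 2 (Pfn1 and Tpm4) without wild-type culture 2 and 3 without wild-type culture 4. Actg1 was lost without mutant culture 1 or wild-type culture 2, 3 or 4 (adjusted p up to 0.0878), and Acta2 without mutant culture 1 or wild-type culture 2 or 4 (up to 0.0743). With mutant cultures 2 and 4, the ones rich in microglial markers, left out, 4 of the 5 genes passed and Acta2 did not (adjusted p = 0.0525). With library size alone as the scaling, which moved the median of all genes to 0.11, Actg1 (-0.18, adjusted p = 0.0752) and Acta2 (-0.46, adjusted p = 0.051) did not pass, and Actb did (0.24, adjusted p = 0.0416). With the level of Y-linked genes as covariate none passed, Tpm4 coming nearest (log2 change -0.51, adjusted p = 0.0679).

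On polyribosomes, 2 of the 10 genes were lower in mutant cultures and 1 was higher over 14412 genes tested, where 23.6% of all genes passed, 11.9% lower and 11.7% higher. Fscn1 had 186600, 162219, 156622 and 104683 in mutant cultures, against 218223, 209582, 209641 and 206705 in wild-type cultures. The wild-type cultures lay within a narrow band and all mutant cultures below it (log2 change -0.50 ± 0.15, adjusted p = 0.0337). Actg1 had 711580, 614552, 666608 and 574163 in mutant cultures, against 805893, 791892, 859300 and 791847 in wild-type cultures. It too did not overlap (log2 change -0.34 ± 0.09, adjusted p = 0.0216). Tmsb4x had 92540, 59218, 90676 and 80814 in mutant cultures, against 30222, 56224, 53484 and 61194 in wild-type cultures. Mutant culture 2 lay between wild-type cultures 2 and 4 and the other 3 mutant cultures above all wild-type ones (log2 change 0.71 ± 0.21, adjusted p = 0.0341).

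Actb, the gene with the high polyribosomal ratio in both genotypes, had 465614, 526492, 630062 and 404082 on mutant polyribosomes, against 454274, 491422, 443895 and 444616 on wild-type polyribosomes. The mutant cultures lay on both sides of the wild-type ones (log2 change 0.13 ± 0.13, adjusted p = 0.491). Acta2 (-0.53 ± 0.23, adjusted p = 0.103), Pfn1 (-0.33 ± 0.12, 0.0713) and Tpm4 (-0.23 ± 0.16, 0.322) did not pass on polyribosomes. Cfl1 (0.06 ± 0.10, 0.677), Tmsb10 (0.09 ± 0.26, 0.820) and Tpm1 (0.19 ± 0.14, 0.342) did not pass either. These 3 polyribosomal calls depended on the libraries and settings. None of the 3 remained without wild-type culture 1, 2 or 3, or with the level of Y-linked genes as covariate. None remained either with limma's plain moderation, which leaves out both the variance trend and the robust step. Fscn1 was also lost without wild-type culture 4 (adjusted p = 0.0574), and Tmsb4x without mutant culture 1, 3 or 4 (adjusted p = 0.0877, 0.0956 and 0.068). Acta2 passed without mutant culture 3 (-0.72, adjusted p = 0.04) or wild-type culture 1 (-0.71, adjusted p = 0.0484). With library size alone as the scaling, which moved the median of all genes to 0.13 on the log2 scale, Tmsb4x alone passed (0.84, adjusted p = 0.0171). Fscn1 (-0.37, adjusted p = 0.0621) and Actg1 (-0.22, adjusted p = 0.0714) did not pass there and kept their sign. With mutant cultures 2 and 4 left out, Actg1 was lost (adjusted p = 0.0662) and Tpm4 passed (-0.50, adjusted p = 0.0101).

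**Figure D3:**
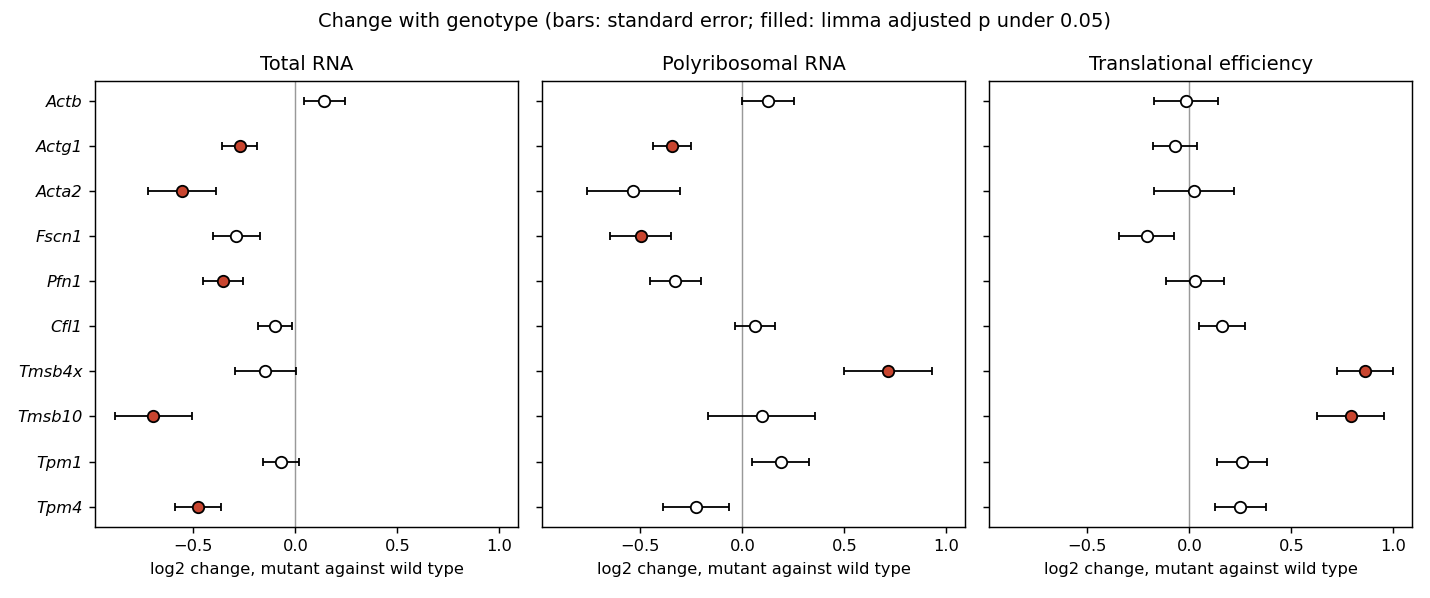
Log2 change of mutant against wild-type cultures (horizontal axis) for each gene in total RNA, polyribosomal RNA and translational efficiency; bars are standard errors, filled points passed a limma adjusted p of 0.05, n = 4 cultures per genotype. In total RNA 5 genes lie to the left and pass; in translational efficiency Tmsb4x (0.86) and Tmsb10 (0.79) stand apart to the right.

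Translational efficiency was tested as the change of polyribosomal RNA with genotype beyond that of total RNA of the same cultures. It was higher in mutant cultures for 2 of the 10 genes and lower for none, over 14333 genes of which 13.0% passed, 5.07% higher and 7.89% lower. Both were thymosins: Tmsb4x changed by 0.86 ± 0.14 on the log2 scale (adjusted p = 0.00613) and Tmsb10 by 0.79 ± 0.17 (adjusted p = 0.00971). As plain ratios of the values, Tmsb4x had 0.534 to 0.787 polyribosomal per total in mutant cultures, against 0.318 to 0.425 in wild-type cultures. Tmsb10 had 0.697 to 1.21 in mutant cultures, against 0.470 to 0.605 in wild-type cultures. The parts of the ratio differed between them, as Tmsb4x was higher on mutant polyribosomes at a total level that did not pass the test with all cultures, and Tmsb10 was lower in mutant total RNA at a polyribosomal level that did not pass.

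The thymosins have the shortest coding sequences of the list, and shortness went with this measure over all genes. Across 13480 genes with a coding length, translational efficiency change and coding length correlated at a Spearman coefficient of -0.42, a description over genes, which are not independent replicates. The 268 genes with at most 300 coding bases had a median change of 0.57, against 0.01 over all genes with a length. Tmsb4x lay at percentile 89.6 and Tmsb10 at percentile 83.6 of these short genes, and at 98.8 and 98.3 of all genes. No fit removed the trend over coding length. In its place the trend over transcript length (the median over coding transcripts) was removed. Tmsb4x then kept 0.63 (adjusted p = 0.0121) and Tmsb10 0.53 (adjusted p = 0.0413). Both calls also remained when any 1 culture was left out (Tmsb4x 0.79 to 0.97, Tmsb10 0.67 to 0.94) and when mutant cultures 2 and 4 were left out (1.07 and 1.14). They were lost with plain moderation, under which no gene of the table passed (adjusted p = 0.05004 for Tmsb4x and 0.0562 for Tmsb10), and with the level of Y-linked genes as covariate (0.88 and 0.98, adjusted p = 0.0725 each). Tmsb4x is X-linked.

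Of the genes that were rich on polyribosomes, none changed in translational efficiency past the threshold. Actb changed by -0.02 ± 0.16 (adjusted p = 0.955), Fscn1 by -0.21 ± 0.14 (0.309), Actg1 by -0.07 ± 0.11 (0.692) and Acta2 by 0.02 ± 0.20 (0.955). Pfn1 (0.03 ± 0.14, 0.919) and Cfl1 (0.16 ± 0.11, 0.354) did not pass, nor did the tropomyosins Tpm1 (0.26 ± 0.12, 0.165) and Tpm4 (0.25 ± 0.13, 0.191). The sign of the small changes of Actb, Acta2, Actg1, Pfn1 and Cfl1 turned under at least 1 alternative.

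A ratio of 2 related genes within a library cancels any scaling that the genes of that library share. The normalization factors of the deposited values may differ between genes, and such a difference would stay in the ratio. Actb to Actg1 was 0.654 to 0.945 in mutant and 0.517 to 0.621 in wild-type polyribosomal RNA, and 0.481 to 0.557 in mutant and 0.360 to 0.412 in wild-type total RNA. Mutant cultures thus held more Actb per Actg1 than any wild-type culture in both fractions. Tmsb4x to Tmsb10 was 1.92 to 3.53 in mutant and 1.57 to 1.73 in wild-type polyribosomal RNA, and 2.99 to 4.81 in mutant and 2.19 to 2.79 in wild-type total RNA. Fscn1 to Actb was 0.249 to 0.401 in mutant and 0.426 to 0.480 in wild-type polyribosomal RNA, and 0.271 to 0.353 in mutant and 0.371 to 0.473 in wild-type total RNA, again without overlap. Pfn1 to Cfl1 was 0.322 to 0.461 in mutant and 0.457 to 0.524 in wild-type polyribosomal RNA, which overlap, and 0.373 to 0.431 in mutant and 0.455 to 0.519 in wild-type total RNA, which do not. Tpm1 to Tpm4 overlapped in both fractions, at 0.965 to 1.82 in mutant and 0.801 to 1.18 in wild-type polyribosomal RNA, and 0.504 to 0.733 in mutant and 0.392 to 0.520 in wild-type total RNA. No test was made of the ratios, and a ratio shows unequal change, not which gene changed. The share of all gene pairs whose ratio separates by genotype was not counted.

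**Figure D4:**
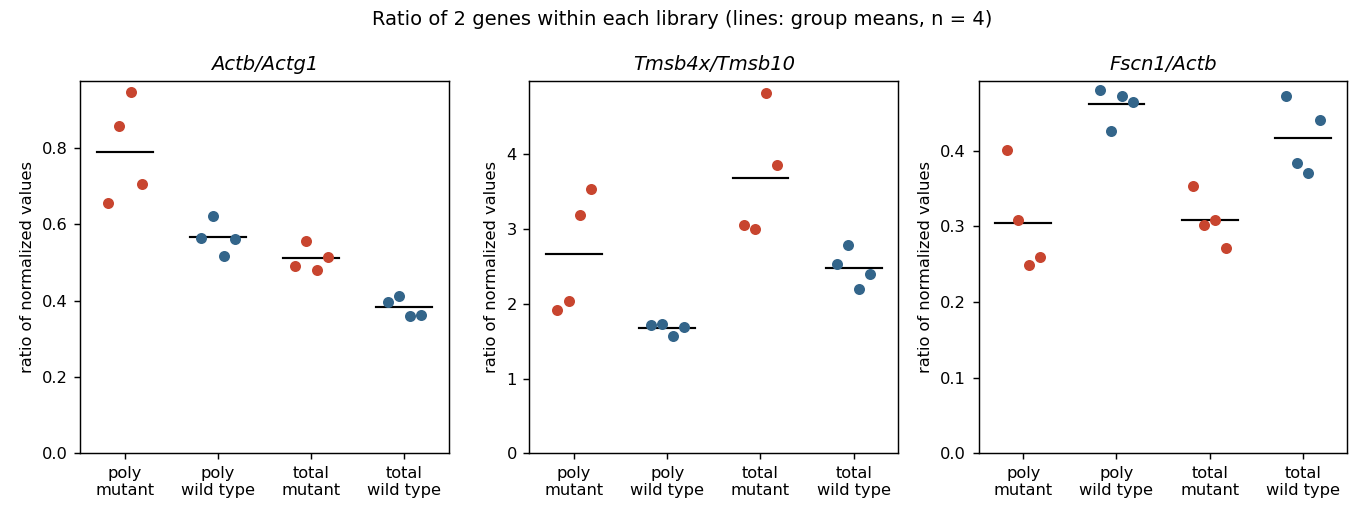
Ratio of the normalized values of 2 genes within each library (vertical axes), for mutant (red) and wild-type (blue) cultures in polyribosomal (poly) and total RNA; points are libraries and lines group means, n = 4. Actb to Actg1 is higher and Fscn1 to Actb lower in all mutant libraries than in any wild-type library of the same fraction.

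Over the 16 libraries, with each table's mean of a gene subtracted, the members did not move as 1 group. Actg1 and Fscn1 (Pearson r = 0.83), Fscn1 and Pfn1 (0.78) and Actg1 and Pfn1 (0.78) varied together, whereas Actb and Fscn1 did not (0.03) and Actb and Actg1 had -0.13. These coefficients mix genotype with the spread between cultures, and the 2 libraries of a culture are not independent. Among 11765 genes with a mean of at least 100 in both tables, those most like Fscn1 were Cdr2l (0.96), Ncoa5 (0.96), Pdzd4 (0.95), Nploc4 (0.95) and Ccar2 (0.95). For Actb they were Muc1 (0.80), H1f0 (0.78), Agfg2 (0.77), Etv4 (0.73) and Pcif1 (0.73), so no gene followed Actb as closely as the nearest ones followed Fscn1.

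The wider actin machinery was read from 10 lists of 121 genes in all. In total RNA 18 of the 116 tested genes (15.5%) were higher and 19 (16.4%) lower in mutant cultures, beside 19.7% and 20.7% of all genes, and on polyribosomes 8 (6.84%) were higher and 13 (11.1%) lower of 117, beside 11.7% and 11.9% of all genes. In translational efficiency 3 of 116 (2.59%) were higher and 16 (13.8%) lower, beside 5.07% and 7.89% of all genes. Over all genes this change fell with coding length (Spearman coefficient -0.42), and the part of length in these counts was not tested.

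The Arp2/3 complex, which starts branched filaments, had 4 of 9 subunits lower in mutant total RNA and none higher, beside 20.7% of all genes lower and 19.7% higher. Its median log2 change was -0.13. Arpc5l had 5807, 6240, 5334 and 6725 in mutant cultures, against 7187, 8188, 8395 and 8386 in wild-type cultures (log2 change -0.42 ± 0.09, adjusted p = 0.00774). Actr3, one of the actin-like core subunits, was lower in total RNA (-0.37 ± 0.09, adjusted p = 0.0109) and on polyribosomes (-0.40 ± 0.13, adjusted p = 0.0408). Actr2 (-0.31) and Arpc4 (-0.32) passed in total RNA alone, and no subunit passed in translational efficiency.

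Formins and WASP family factors, which start straight and branched filaments, had 5 of 20 genes higher and 1 lower in total RNA. Of all genes, 19.7% were higher and 20.7% lower there. Fmnl2, a formin of filopodia and lamellipodia, had 12947, 10497, 14218 and 11903 in mutant cultures, against 8086, 9353, 8454 and 8967 in wild-type cultures (log2 change 0.50 ± 0.10, adjusted p = 0.00562), and 0.64 ± 0.12 on polyribosomes (adjusted p = 0.00566). Fmnl1, a formin of blood cells, stood at 277 to 329 in mutant and 115 to 157 in wild-type total RNA (1.15 ± 0.15, adjusted p = 0.00254). In translational efficiency 6 of the 20 were lower and 1 higher, beside 7.89% and 5.07% of all genes. Wasf2, a subunit of the WAVE complex, had 7653, 10774, 13720 and 5169 on mutant polyribosomes, against 19101, 15358, 17813 and 15151 on wild-type ones, at a total level that did not pass, and its translational efficiency was lower by a log2 change of -1.10 ± 0.25 (adjusted p = 0.0155). Inf2 (-0.77, adjusted p = 0.0064) and Fhod1 (-0.62, adjusted p = 0.0134) were lower too.

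Monomer binding, severing and capping proteins had 3 of 20 genes higher and 5 lower in total RNA, beside 19.7% and 20.7% of all genes. The severing protein gelsolin (Gsn) had 5501, 4801, 5815 and 4885 in mutant cultures, against 3335, 2669, 2158 and 2734 in wild-type cultures. It was higher in total RNA (0.96 ± 0.13, adjusted p = 0.00257) and on polyribosomes (0.81 ± 0.14, adjusted p = 0.0041). Capg, which caps filament ends, was higher in total RNA (0.99, adjusted p = 0.011) and on polyribosomes (1.00, adjusted p = 0.0109), and Ssh3, a phosphatase that activates cofilin, by 1.18 in total RNA (adjusted p = 0.00327), at 138 to 199 in mutant and 62.5 to 96.6 in wild-type cultures. None of the list passed in translational efficiency; the smallest p belonged to Capzb (0.28 ± 0.11, adjusted p = 0.093), followed by Twf2 (0.25, adjusted p = 0.175).

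Bundling and cross-linking proteins had 4 of 16 genes higher and 1 lower in total RNA, beside 19.7% and 20.7% of all genes. Tagln2, an actin-binding relative of transgelin, had 20123, 18626, 16015 and 15622 in mutant cultures, against 27180, 25399, 28791 and 24038 in wild-type cultures (-0.59 ± 0.10, adjusted p = 0.00369), and was lower on polyribosomes as well (-0.47, adjusted p = 0.0314). Dbn1, drebrin, was higher in total RNA (0.50 ± 0.10, adjusted p = 0.00494). Pls3, plastin 3, was higher in total RNA (0.39, adjusted p = 0.0281) and on polyribosomes (0.75 ± 0.13, adjusted p = 0.0043). Actn1 (-0.56, adjusted p = 0.0128) and Marcks (-0.54, adjusted p = 0.0114) were lower in translational efficiency. Marcks was also higher in total RNA (0.19, adjusted p = 0.0448) and lower on polyribosomes (-0.35, adjusted p = 0.0446). Of the tropomyosins, tropomodulins and myosin II subunits, 1 of 13 was higher and 2 lower in total RNA, beside the same all-gene shares. Tpm3 was lower in total RNA (-0.37, adjusted p = 0.0207) and on polyribosomes (-0.33, adjusted p = 0.0436), and Myl12a in total RNA (-0.28, adjusted p = 0.023), while Myl12b was higher on polyribosomes (0.37, adjusted p = 0.044). The non-muscle myosin heavy chain Myh9 was higher in total RNA (0.52, adjusted p = 0.0295) and lower in translational efficiency (-0.64, adjusted p = 0.0208), and Mylk lower in translational efficiency (-0.63, adjusted p = 0.0243).

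Adhesion and membrane linkers had 1 of 14 higher and 2 lower in total RNA, beside 19.7% and 20.7% of all genes. Vinculin (Vcl), which ties filaments to adhesions and is an SRF target, had 6029, 6123, 6045 and 6344 in mutant cultures, against 3575, 3492, 3579 and 4492 in wild-type cultures. It was higher in total RNA (0.70 ± 0.09, adjusted p = 0.00254) and lower in translational efficiency (-0.54 ± 0.13, adjusted p = 0.0148). Radixin (Rdx) went the other way, -0.49 in total RNA (adjusted p = 0.00803) and 0.47 in translational efficiency (adjusted p = 0.0215). Tln2 was lower on polyribosomes (-0.61, adjusted p = 0.0104), and Pxn, with -0.40 there (adjusted p = 0.156), did not pass.

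SRF cofactors and target genes outside the 10 genes had 5 of 14 higher in mutant total RNA and none lower, beside 19.7% of all genes higher and 20.7% lower, Vcl and Myh9 being counted here and above. Ctgf, a matricellular protein that is also a YAP target, had 2312, 964, 4323 and 1225 in mutant cultures, against 534, 424, 372 and 586 in wild-type cultures (1.97 ± 0.40, adjusted p = 0.00554). Cyr61, of the same family, was higher in total RNA (0.88, adjusted p = 0.00634) and on polyribosomes (0.82, adjusted p = 0.0246). Srf itself did not pass in total RNA (-0.14, adjusted p = 0.251) and was lower on polyribosomes (-0.54, adjusted p = 0.0388). Its actin-sensing cofactor Mkl1 was higher in total RNA (0.35, adjusted p = 0.042) and lower in translational efficiency (-0.61, adjusted p = 0.0171). In 4 of the 10 genes of this list with a promoter window (Fhl2, Myl9, Srf and Vcl) a CArG box was found.

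Of 4 tested genes for proteins that bind the zipcode or the 3′ UTR of Actb mRNA, 3 were lower in mutant total RNA and 3 on mutant polyribosomes, where 20.7% and 11.9% of all genes were lower. Igf2bp2 had 2911, 3291, 2921 and 2431 in mutant total RNA, against 5227, 3367, 3786 and 3947 in wild-type total RNA (-0.49 ± 0.14, adjusted p = 0.0205), and was lower by more on polyribosomes (-0.90 ± 0.19, adjusted p = 0.00869; translational efficiency -0.42, adjusted p = 0.0387). Igf2bp3 had 637, 1022, 574 and 449 in mutant cultures, against 1313, 1198, 1306 and 855 in wild-type cultures (-0.85 ± 0.24, adjusted p = 0.0184). Khsrp had 21733, 26094, 26076 and 13916 on mutant polyribosomes, against 46090, 35803, 36605 and 29991 on wild-type ones (-0.78 ± 0.20, adjusted p = 0.0168). Igf2bp1, the zipcode-binding protein that gave the family its name, was at 0.5 to 43.4 in mutant and 1.6 to 7.1 in wild-type total RNA and was not tested.

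**Figure D5:**
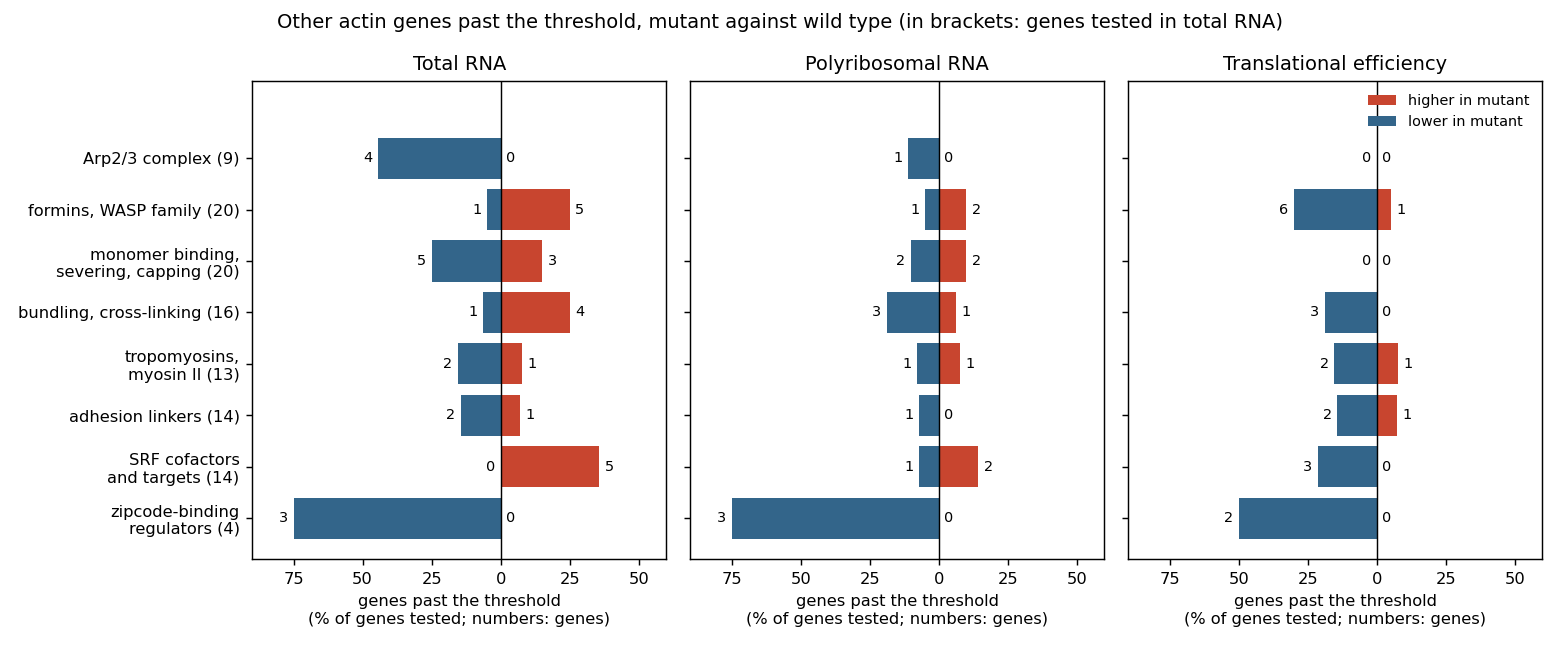
Share of the genes tested in each actin list described here that passed a limma adjusted p of 0.05 (horizontal axis, percent of genes tested), higher (red, right) or lower (blue, left) in mutant cultures, with the number of genes beside each bar; the list of other actins, with 1 gene tested on polyribosomes (Actc1, not past the threshold), is left out. In total RNA 4 of 9 Arp2/3 subunits and 3 of 4 zipcode-binding regulators were lower and none higher, and 5 of 14 SRF genes were higher and none lower, beside 20.7% of all genes lower and 19.7% higher.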

How the data were processed

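Total and polyribosomal RNA of the same cultures was sequenced as polyadenylated, unstranded paired ends, so overlapping genes are uncertain. Per the study's methods, the authors trimmed reads, used STAR with mm10 and normalized with DESeq2; for the read counter and its annotation, "not given in the sources used here" holds. The deposited values are a signal (reads of a gene over a normalization factor), in 1 table per fraction. Whole reads could not be recovered from them, so no count model was used, although one had been planned. Rows with names turned into dates (26 of 24972) were left out.

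Changes with genotype were tested on log2(value + 1), a scale that understates changes of low genes, using limma 3.58.1 (R 4.3.3) with a variance trend, robust moderation and Benjamini-Hochberg adjustment over all genes with a mean of at least 10. Log2 changes are given ± their standard error. Overlap between the groups, or its absence, is a description, and its share over all genes was not counted. Translational efficiency was the interaction of genotype and fraction over 16 libraries with culture as a block. The animals and litters behind the cultures are not named in the labels, and p-values cover only the spread among these cultures. The fits were also run on simulated libraries with known changes, in which the 2 fractions of a culture varied independently. In the data the deviations of those 2 libraries correlated at 0.233 to 0.731, so the simulation does not cover this pairing. Lengths and coding sequences are from GENCODE M21.

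The genes and lists were chosen with earlier results of these data known. Of the 10 actin lists, 1 is counted in their sum but not reported here by itself. Named besides the 10 were Tsc2, up to 2 genes of each list by smallest p per comparison (3 for SRF), and for Actb and Fscn1 the 5 most alike. Alternatives were other scalings, pseudocounts, filters and moderation, each culture left out, replicate numbers as a block, a covariate from Y-linked genes and a trend over transcript length.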

Additional observations from a re-analysis of the deposited data

Results flagged for a closer look

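Among 40 groups of 4 libraries, 2 held a library far from the other 3 by Dixon's criterion, the number that chance gives at 1 in 20. Tmsb10 in total RNA was 37489 in wild-type culture 1, against 59307 to 60117 in the other wild-type cultures; without that culture its log2 change was -0.86. Actg1 in total RNA was 230425 in mutant culture 3, against 268279 to 275580 in the other mutant cultures.

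The change with genotype differed between polyribosomal and total RNA, by the test of the interaction, for Tmsb4x (log2 difference 0.86, adjusted p = 0.00613) and Tmsb10 (0.79, adjusted p = 0.00971), with mutant above wild-type cultures in 4 of 4 for both. That separation rests on the same ratios as the test, and its share over all genes was not counted.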

How the results depend on the processing

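Relative to the values as deposited, scaling by library size alone left 1 of the 10 genes past the threshold on polyribosomes and turned the sign of 2 small changes, Tpm1 in total RNA (0.027) and Actb in translational efficiency (0.011). It moved the median of all genes to 0.11 in total and 0.13 in polyribosomal RNA, and the share of called genes that were higher to 62.9%, 73.5% and 49.3% in total RNA, polyribosomal RNA and translational efficiency, against 48.8%, 49.7% and 39.1% as deposited. Plain limma moderation left 0 of the 10 on polyribosomes, and 0 of the 10 and 0 of all genes in translational efficiency. A covariate from Y-linked genes left 1063, 43 and 0 genes of 6035, 3403 and 1858 in the 3 comparisons and 0 of the 10 in each, and gave Acta2 -0.153 in translational efficiency. Without mutant cultures 2 and 4 the polyribosomal count was 5402, and Actb (0.217) and Actg1 (0.0847) turned sign in translational efficiency. With the trend over transcript length removed 1128 genes passed in translational efficiency, and Acta2 (-0.124), Pfn1 (-0.205) and Cfl1 (-0.0311) turned sign. The cause was not tested beyond these settings.

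Leaving out 1 culture at a time gave 2 to 6 of the 10 genes in total RNA, 0 to 3 on polyribosomes and 2 in translational efficiency, and 4195 to 6649, 1884 to 4087 and 649 to 3282 of all genes. It turned Tmsb10 on polyribosomes (-0.145 to 0.239) and, in translational efficiency, Actb (-0.215 to 0.108), Pfn1 (-0.0612 to 0.18) and Acta2 (-0.161 to 0.109). Mutant and wild-type cultures share only a replicate number: same-numbered deviations from the group means correlated at -0.127 to 0.127, and 5 of 16 libraries correlated best with their own number. With the replicate number as a block 4 of the 10 genes passed in total RNA (Actg1 was lost, adjusted p = 0.0848), 3 on polyribosomes and 2 in translational efficiency, with 4741, 2361 and 1374 of all genes. With no filter on low values Fscn1 did not pass on polyribosomes (adjusted p = 0.0508). Recomputed medians of ratios and a pseudocount of 10 changed no call of the 10 genes.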
